A study of Mus musculus with 25 samples.

Results

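CD8+ T cells isolated from B16F10 tumours, a transplanted mouse melanoma, were compared between mice with a conditional knockout of c-Maf (c-Maf cKO) and wild-type mice. The comparison rests on 7 of the 25 libraries of the series: 3 c-Maf cKO libraries, coded B10, B11 and C1, and the 4 wild-type libraries that stand beside them in the deposited table, coded B5, B7, B8 and B9. They were chosen by genotype and by position in the table, and not by a measured value. The others are 12 further wild-type libraries, 3 Prdm1 cKO libraries and 3 libraries lacking both factors (Prdm1/c-Maf cDKO), each knockout again with wild-type columns of its own beside it. All mice were C57BL/6 and all carried the tumour, wild type included. The sources used here do not give the age and sex of the mice, the Cre line that deletes Maf, the part of the gene that is removed or the number of animals behind a library, so that p-values measure only the spread between these libraries, which may be technical.

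Maf encodes c-Maf, a basic leucine zipper transcription factor of the large Maf proteins, which carry an activation domain and bind DNA as dimers. The small Maf proteins, MafF, MafG and MafK, lack that domain. In T cells c-Maf is induced by interleukin-27 and other cytokines, activates Il10, and has been described together with Blimp-1, the repressor encoded by Prdm1, as a regulator of co-inhibitory receptors. c-Maf is also abundant in macrophages, which are common in melanomas.

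The values are a normalised signal per gene, made by the authors. The 7 libraries held summed signals from 431769 to 466199 and between 12749 (B10) and 14601 (B7) genes above 0, and the ribosomal RNA gene Rn45s took 9.62% (B10) to 14.2% (C1) of a library. Cd8a, the defining receptor chain of these cells, was between 175 and 221 in every library, and the mean log2 level of 7 CD8 T cell markers was between 8.20 and 8.41. Pairs of c-Maf cKO libraries correlated less well with each other across genes (Pearson's r of log2 values 0.907 to 0.938 in 3 pairs) than pairs of wild-type libraries did (0.959 to 0.969 in 6 pairs). Pairs of a c-Maf cKO and a wild-type library had r of 0.929 to 0.953 (12 pairs), so that c-Maf cKO libraries did not group by genotype. Library C1 stood apart in the signal of other cells: it had the highest mean log2 level of 14 macrophage and monocyte markers (5.94, against 2.99 to 5.00 in the others) and the lowest of 11 melanoma markers (1.18, against 2.72 to 4.94). C1 is also the one library of the 7 whose code begins with another letter. Where a value of the comparison of the 7 libraries is given without C1 below, it is the value within code letter B.

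Maf was close to 0 in all 7 libraries, and its level did not separate the genotypes. Its deposited value was 0 in B10, 0 in B11 and 0.93 in C1, against 0.15, 0.20, 0.06 and 0.58 in B5, B7, B8 and B9; here and below, values are given in this order. Both B10 and B11 were thus below every adjacent wild-type library, and C1 was above them all (exact two-sided permutation test of the means, p = 0.83, smallest p possible with 35 splits 0.0286). Across the 16 wild-type libraries of the series Maf ranged from 0.03 to 0.95, and Maf did not reach the minimum of 1 in 3 libraries needed for the test across genes. C1, the library labelled c-Maf cKO with the highest Maf value, was also the one with the highest macrophage marker level, and B9, the wild-type library with the highest Maf value, had the next highest (5.00). Elsewhere in the series Maf and the marker level varied. Wild-type library A11 had a Maf value of 0.80 at a marker level of 2.08, and wild-type B3 had 0.79 at 3.97. Wild-type A10 had 0.44 at 5.80, and A4, the wild-type library with the highest Maf value (0.95), had 5.64. Whether the Maf signal of C1 came from other cells was not tested. In lysates of bulk cells, fewer cells of a type and less RNA per cell cannot be told apart.

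**Figure D1:**
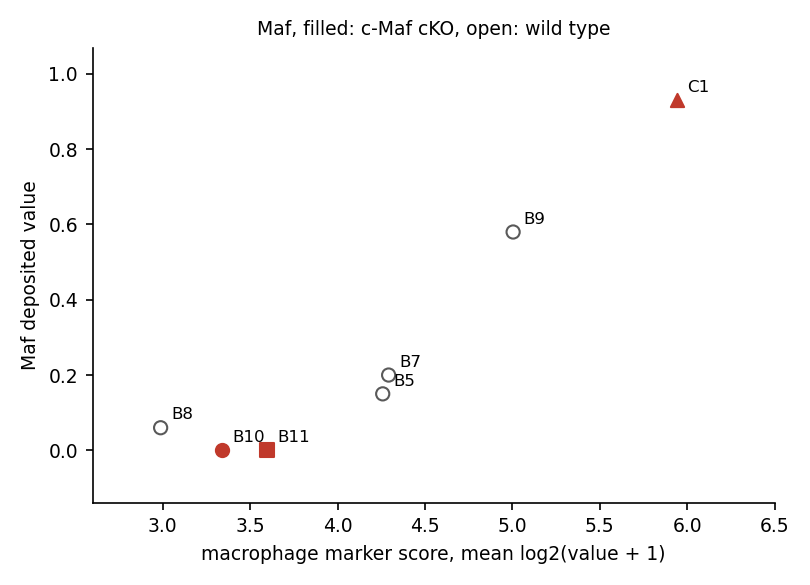
Deposited values of Maf in the 7 libraries, plotted against the mean log2(value + 1) of 14 macrophage and monocyte markers on the horizontal axis; filled symbols are c-Maf cKO and open symbols wild type. C1 lies at the upper right, with a Maf value of 0.93, and B10 and B11 lie at a Maf value of 0.

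Relatives of c-Maf were described in the same libraries. Mafk, a small Maf, was 18.81, 20.82 and 18.57 in c-Maf cKO against 23.28, 16.52, 28.93 and 25.95 in wild type, which overlap. The log2 fold changes of value + 1 (limma) were -0.25 ± 0.20 (SE) for Mafk, 0.13 ± 0.27 for Mafg and 0.06 ± 0.29 for Maff, none past the threshold (adjusted p of 0.862 or more). Mafa and Nrl, the large Maf genes of pancreatic beta cells and of rod photoreceptors, were listed at 0 in all 7 libraries. Of 15 tested genes of the Maf family and its partners, 1 was higher and 0 were lower in c-Maf cKO at an unadjusted p under 0.05, with a median log2 fold change of 0.06.

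Prdm1, which encodes the other factor of the study, overlapped between the genotypes. It was 20.31, 14.44 and 16.28 in c-Maf cKO and 24.85, 19.42, 23.01 and 19.54 in the adjacent wild type. The means were 17.0 ± 3.0 (SD, n = 3) and 21.7 ± 2.68 (SD, n = 4), with overlapping ranges (exact two-sided permutation test, p = 0.171). The log2 fold change of -0.34 had a 95% interval from -0.73 to 0.05, and against all 16 wild-type libraries it was 0.19, in the other direction.

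Few genes separated the genotypes. Of 10556 genes with a value of at least 1 in at least 3 of the 7 libraries, 1 (0.00947%) passed a Benjamini-Hochberg adjusted p under 0.05 (limma), the next smallest adjusted p being 0.094. At an unadjusted p under 0.05, 268 genes (2.54%) were higher and 442 (4.19%) lower in c-Maf cKO, and these shares are the background for the counts of gene groups below. The background itself moved with the libraries used: it was 422 higher and 644 lower without C1, 168 and 282 without B7, 191 and 357 without B8, and between 236 and 323 higher and 381 and 601 lower with any of the others left out. All 3 c-Maf cKO libraries were above all 4 wild-type libraries for 328 genes (3.11%) and below them for 444 genes (4.21%). The median log2 fold change of all genes was -0.03, with 4761 above 0 and 5795 below, and the median SE was 0.25. Without C1, 4 genes passed: Tmem254c and Ldhb, higher in c-Maf cKO, and Bag1 and Hist1h2ao, lower. Ldhb, a subunit of lactate dehydrogenase, was 39.58, 30.17 and 4.91 against 6.70, 11.68, 11.02 and 9.36, and Bag1, a co-chaperone of Hsp70, was 11.87, 13.90 and 59.01 against 45.84, 45.90, 37.12 and 36.16. C1 lay on the other side of the wild-type libraries from B10 and B11 in both; these 2 genes were chosen for naming after their values were seen.

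The gene that passed was Tmem254c, one of 3 near-identical copies of a gene for a small transmembrane protein. It was 14.24, 22.03 and 10.97 in c-Maf cKO and listed at 0 in all 4 adjacent wild-type libraries (limma adjusted p = 0.000135). Tmem254b was 52.76, 31.32 and 51.71 against 56.60, 68.35, 57.48 and 67.46, and Tmem254a was 0, 0.65 and 0 against 1.61, 1.48, 1.48 and 1.01, so that both other copies were lower where Tmem254c was higher. The sum of the 3 copies, 67.00, 54.00 and 62.68 against 58.21, 69.83, 58.96 and 68.47, overlapped between the genotypes, and with the copies summed 0 genes passed. In the 12 other wild-type libraries Tmem254c was above 0 in 9, up to 18.47, and against all 16 wild-type libraries it did not pass (adjusted p = 0.751). The sources used here do not say how the authors' counting divided reads shared by the copies.

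The likeness of the copies is shown by the sequence around their starts, from the RefSeq promoter table (GRCm38.p6, a later build than the mm9 of the files; 300 bases around the start, minus strand of chromosome 14, 5′ to 3′). Capitals mark the 284-base run that all 3 windows share, and the window of Tmem254a is identical to that of Tmem254c over its 300 bases.
Tmem254c, chr14:26067376-26067675: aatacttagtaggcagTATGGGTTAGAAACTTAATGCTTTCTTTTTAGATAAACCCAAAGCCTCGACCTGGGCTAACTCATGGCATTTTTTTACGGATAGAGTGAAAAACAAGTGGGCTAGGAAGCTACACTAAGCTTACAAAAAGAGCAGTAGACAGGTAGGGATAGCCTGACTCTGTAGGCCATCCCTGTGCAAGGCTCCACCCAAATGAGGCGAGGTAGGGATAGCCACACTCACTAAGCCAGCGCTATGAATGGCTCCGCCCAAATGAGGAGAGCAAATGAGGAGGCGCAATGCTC
Tmem254b, chr14:26206976-26207275: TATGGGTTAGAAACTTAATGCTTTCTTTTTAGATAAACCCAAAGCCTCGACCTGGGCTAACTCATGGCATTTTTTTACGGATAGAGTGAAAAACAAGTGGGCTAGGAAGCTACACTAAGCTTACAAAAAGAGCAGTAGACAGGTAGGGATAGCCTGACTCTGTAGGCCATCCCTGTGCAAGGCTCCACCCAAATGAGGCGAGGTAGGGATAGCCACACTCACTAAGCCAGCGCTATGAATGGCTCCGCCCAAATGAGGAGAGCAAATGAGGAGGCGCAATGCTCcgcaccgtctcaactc
The run ends the windows of Tmem254c and Tmem254a and opens that of Tmem254b. In the transcripts of the GENCODE vM21 annotation, all 1549 stretches of 31 bases of Tmem254c occur in Tmem254a and all of them occur in Tmem254b.

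The other genes with the smallest p-values whose libraries did not overlap were below the threshold, and they are given as values. Higher in c-Maf cKO was Igfbp4, a secreted binding protein of insulin-like growth factors, at 44.93, 33.90 and 25.39 against 14.14, 10.12, 14.89 and 15.21. Its log2 fold change was 1.27 ± 0.22 (SE; adjusted p = 0.187). Cd81, a tetraspanin, was 34.86, 29.25 and 28.87 against 13.63, 14.32, 18.95 and 16.34, a log2 fold change of 0.93 ± 0.17 (adjusted p = 0.187), and Lad1, an anchoring protein of basement membranes, was 36.76, 29.06 and 24.81 against 15.29, 10.65, 15.03 and 14.97 (1.05 ± 0.20, adjusted p = 0.187). In these 3 genes the lowest c-Maf cKO library was C1. That C1 lay above the highest wild-type library follows from how the genes were chosen. Against all 16 wild-type libraries the log2 fold change was 0.55 for Igfbp4, 1.06 for Lad1 and -0.31 for Cd81, so that the direction of Cd81 depended on which wild-type libraries were used.

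The remaining higher genes were also below the threshold. Ifngr2, a chain of the interferon gamma receptor, was 15.02, 14.10 and 10.85 against 4.28, 5.76, 8.59 and 7.03, and Nfkb1, which encodes the p105 and p50 forms of NF-kappa B, was 11.99, 12.05 and 13.09 against 8.45, 5.97, 7.93 and 6.32. The log2 fold changes were 0.97 for Ifngr2 and 0.72 for Nfkb1, with adjusted p-values of 0.421 and 0.533. Prkcd, a protein kinase C, Trim11, a ubiquitin ligase, Smpdl3a, a phosphodiesterase, C1galt1c1, the chaperone of a glycosyltransferase, and Gpr146, an orphan receptor, had log2 fold changes from 0.51 to 1.08. Prss2, a trypsin, Actbl2 and Cxx1c had low signals, with at most 6.51 in any of the 7 libraries, and log2 fold changes of 1.71, 1.56 and 1.35.

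Lower in c-Maf cKO, and likewise below the threshold, were 3 histone genes. Hist1h2ao, an H2A histone and the gene closest to the threshold, was 236.92, 249.02 and 314.05 against 423.15, 510.53, 419.61 and 497.60 (log2 fold change -0.80 ± 0.12, adjusted p = 0.094). Hist1h3c was 3.19, 4.51 and 4.84 against 12.34, 14.81, 15.25 and 9.14, and Hist1h2bk was 5.38, 4.72 and 3.19 against 7.48, 12.75, 11.96 and 12.75. Histone genes have close copies, between which the authors' counting could divide the signal. Hist1h2ao passed without C1 (adjusted p = 0.0112) and with the macrophage marker level as a covariate (0.00634), whereas against all 16 wild-type libraries its log2 fold change was 0.24, in the other direction.

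Prkra, an activator of the double-stranded RNA kinase PKR, was 1.19, 1.71 and 0.49 in c-Maf cKO against 5.21, 4.76, 5.72 and 6.04 (log2 fold change -1.63 ± 0.28, adjusted p = 0.187). It was the gene that passed against all 16 wild-type libraries (-1.63, adjusted p = 0.0374), which ranged from 1.82 to 8.33 and so lay above every c-Maf cKO library. Cyr61, a matrix protein, was 1.72, 0 and 0.05 against 3.62, 10.76, 3.78 and 5.96. Cdkn3, a cell cycle phosphatase, was 10.64, 8.58 and 4.22 against 17.46, 20.76, 20.14 and 20.00. Tmsb4x, which encodes the actin-binding thymosin beta 4, was 1434.65, 1465.13 and 1729.99 against 2167.37, 2290.98, 1821.90 and 2113.22, with the lowest wild-type library just above C1. Snrpg, a spliceosome protein, Usmg5, a subunit of ATP synthase, Obfc1, a telomere protein, and the ribosomal protein genes Rpl36, Rpl35, Rpl32, Rpl41 and Rpl27 had log2 fold changes from -0.89 to -0.36, with adjusted p-values from 0.187 to 0.276.

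**Figure D2:**
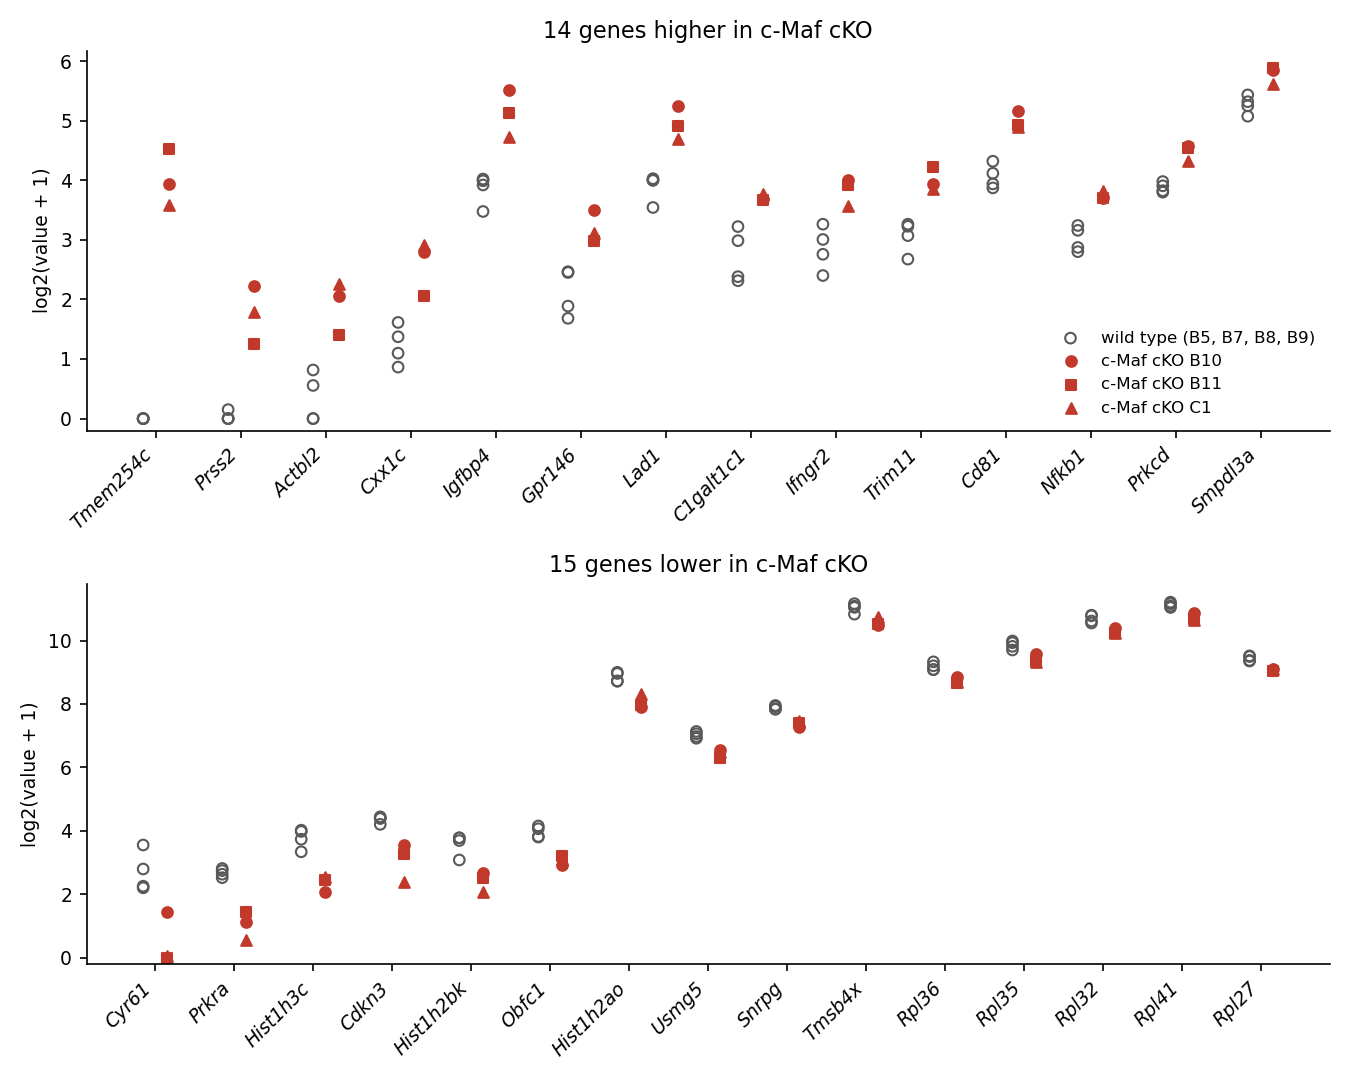
Levels as log2(value + 1) of 14 higher and 15 lower genes with the smallest p-values and no overlap between genotypes, ordered by log2 fold change; open circles are the 4 wild-type libraries and filled symbols the 3 c-Maf cKO libraries, one symbol each. Tmem254c, at 0 in every wild-type library, is the one gene past the threshold, and the absence of overlap in all 29 genes follows from how they were chosen.

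Among co-inhibitory receptors, which restrain T cells in tumours, no member passed the threshold. Of 22 tested members 0 were higher and 2 lower at an unadjusted p under 0.05, and the median log2 fold change was -0.07. Havcr2, which encodes Tim-3, was 46.67, 45.51 and 50.55 against 63.33, 71.68, 66.18 and 63.40, or 47.6 ± 2.64 (SD, n = 3) against 66.1 ± 3.92 (SD, n = 4), and was the one member whose libraries did not overlap. Its log2 fold change was -0.47 with a 95% interval from -0.73 to -0.21 (adjusted p = 0.454). The other member was Lag3, a receptor for MHC class II, at 131.37, 103.72 and 148.07 against 170.64, 229.94, 174.48 and 129.88 (-0.45, interval -0.84 to -0.06, adjusted p = 0.695). Pdcd1 (PD-1), Tigit and Ctla4 had log2 fold changes of -0.05, -0.02 and -0.12, with intervals of -0.34 to 0.25, -0.29 to 0.25 and -0.60 to 0.35. For all 5 of these receptors the direction depended on the wild-type libraries: against all 16 the log2 fold changes were positive, from 0.22 for Lag3 to 0.71 for Pdcd1.

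No gene of the interleukin-27 and interleukin-10 axis passed the threshold, and 1, Il6ra, lay above wild type without overlap. Il10, the best known target of c-Maf in T cells, was 0.18, 8.13 and 2.94 in c-Maf cKO and 2.01, 1.89, 0.94 and 3.14 in wild type, so that c-Maf cKO held both the lowest and the highest library. Its log2 fold change of 0.27 had an interval from -1.02 to 1.56. Of 14 tested genes of the axis, 2 were higher and 1 lower at an unadjusted p under 0.05, with a median of 0.04. The count was 0 higher and 1 lower without B8, 1 and 2 without C1 or without B5, 2 and 0 without B10, 1 and 1 without B11, 1 and 0 without B7, and 0 and 0 against all 16 wild-type libraries. The median was -0.04 without B10 and -0.04 without B11. The 18 tested members of a list of genes linked to c-Maf in T cells counted 1 higher and 2 lower, with a median of -0.02, and 3 were higher without B10 and 3 without C1. Il6ra, a receptor chain for interleukin-6, was 8.33, 4.50 and 7.37 against 4.32, 3.47, 1.66 and 3.89 (log2 fold change 0.85, adjusted p = 0.661).

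Genes of naive and stem-like T cells had mostly higher values in c-Maf cKO, none past the threshold. Of 20 tested members 19 had a log2 fold change above 0, 5 were higher and 0 lower at an unadjusted p under 0.05, 3 lay above wild type without overlap, and the median was 0.21. Tcf7, which encodes TCF-1, the factor of stem-like CD8+ T cells, was 75.24, 65.01 and 43.88 against 33.27, 27.55, 36.85 and 49.20, with C1 inside the wild-type range (log2 fold change 0.72 ± 0.22, adjusted p = 0.599). Ccr7, the lymph node homing chemokine receptor, was 192.00, 168.99 and 161.32 against 108.78, 83.84, 123.74 and 151.30 (0.60 ± 0.17, adjusted p = 0.548). S1pr1, the receptor for exit from tissue, was 40.15, 39.36 and 42.11 against 28.25, 19.03, 27.06 and 37.93, and Il7r, the interleukin-7 receptor, overlapped at 18.74, 21.26 and 9.17 against 16.44, 8.39, 9.58 and 23.73. Against all 16 wild-type libraries the median of the list was 0.02 and 0 members were below 0.05, while without C1 it was 0.43 with 6 higher and 1 lower.

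Cytotoxic effector genes had mostly lower values, within a wide spread. Of 18 members 16 had a log2 fold change below 0, with a median of -0.31, and 0 were below an unadjusted p of 0.05 in either direction. Gzmb, which encodes granzyme B, was 418.25, 535.46 and 788.53 against 460.65, 1050.61, 943.43 and 656.96, and Prf1, perforin, was 175.12, 245.91 and 301.79 against 134.80, 549.02, 549.16 and 289.58. The wild-type library B5 was low in both, and without it 5 members were lower at an unadjusted p under 0.05. Intervals of the log2 fold change were -1.29 to 0.49 for Gzmb and -1.93 to 0.96 for Prf1, wide enough to hold differences of either direction. Against all 16 wild-type libraries both log2 fold changes were above 0, at 0.43 and 0.54. Nkg7, a protein of cytotoxic granules, was 1352.27, 1147.01 and 1332.86 against 1435.48, 1675.73, 1390.47 and 1330.38.

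Killer cell lectin-like receptors, which recognise MHC class I-like ligands, had a median log2 fold change of -0.66 over 14 tested members, 12 of them below 0. At an unadjusted p under 0.05, 0 were higher and 4 lower, and 0 lay outside the wild-type range. Klrc1 (NKG2A) was 73.57, 98.20 and 74.08 against 88.12, 132.47, 161.87 and 129.65. Klrd1 (CD94) was 51.99, 80.98 and 93.12 against 79.37, 132.46, 124.63 and 109.14. In both, and in Klre1 and Klrk1, the wild-type library B5 was the lowest and overlapped c-Maf cKO. Their log2 fold changes were -0.62 for Klrc1, -0.57 for Klrd1, -1.18 for Klre1 and -0.59 for Klrk1 (adjusted p of 0.609 or more). The count of 4 moved to 2 without B10, to 8 without B11, and to 1 against all 16 wild-type libraries. Several members had low signals. With a minimum value of 10, 6 members were left, with a median of -0.61, and with a pseudocount of 10 the median of all 14 was -0.17.

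Genes of the G2 and M phases of the cell cycle had mostly lower values in c-Maf cKO. Of 20 genes of the G2 and M phases, 0 were higher and 7 lower at an unadjusted p under 0.05, 5 lay below wild type without overlap, and the median was -0.34. Birc5, which encodes survivin, was 70.70, 73.14 and 70.88 against 91.19, 103.47, 118.82 and 105.15 (log2 fold change -0.54 ± 0.12, adjusted p = 0.289). Aurka, a mitotic kinase, was 11.69, 11.56 and 7.60 against 15.28, 19.51, 18.54 and 14.10, and Ccnb2, cyclin B2, was 63.40, 58.02 and 74.99 against 84.58, 81.84, 85.24 and 83.41. Of 20 S phase genes 0 were below 0.05 in either direction and the median was -0.11. The difference between the phases was not tested. The G2 and M count was 3 lower and 1 higher without C1 and 3 lower without B7 or without B8, and against all 16 wild-type libraries both medians were above 0, at 0.18 for G2 and M and 0.31 for S phase.

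Interferon-stimulated genes had the highest median among the lists shown, a ranking that depended on the filter and on C1. Of 19 tested members 16 had a log2 fold change above 0, 6 were higher and 0 lower at an unadjusted p under 0.05, and the median was 0.47. Rsad2 (viperin) was 3.31, 6.71 and 7.96 against 1.04, 3.62, 1.70 and 2.48, Oas2, which senses double-stranded RNA, was 1.56, 2.15 and 4.89 against 0.48, 1.21, 0.46 and 0.91, and Ifit3, an antiviral RNA-binding protein, was 15.14, 31.15 and 13.62 against 7.21, 11.35, 12.95 and 12.43. Their log2 fold changes were 1.12, 1.06 and 0.74, with adjusted p-values of 0.613, 0.649 and 0.686. Mx1 (-0.71) and Isg20 (-0.33) were among the members below 0. The direction of the median was the same against all 16 wild-type libraries (0.37), and the count of 6 higher was 2 without C1 (with 1 lower), 2 without B11 and 2 without B5. With a minimum value of 10, 9 members were left, 2 of them higher. Their median was 0.21, below the 0.43 of the naive and stem-like genes under that filter. C1, the library with the most macrophage signal, was the highest of the 7 for Rsad2 and Oas2 and the lowest c-Maf cKO library for Ifit3. Without C1 the median was 0.24, below the 0.43 of the naive and stem-like genes. With the macrophage marker level as a covariate the median was 0.44, with 6 higher and 1 lower. Macrophages also use these genes, and their part in the difference was not tested.

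Smaller groups held a few members with low p-values. Ccl1, a chemokine of activated T cells, was 87.77, 34.49 and 27.16 against 19.72, 11.03, 18.25 and 18.35, without overlap (log2 fold change 1.35 ± 0.37, adjusted p = 0.596), and Cxcl10, a ligand of Cxcr3, was 7.17, 8.6 and 15.34 against 5.87, 3.74, 3.23 and 7.14. Cd40lg, the ligand of CD40, was 1.86, 1.42 and 1.76 against 0.44, 0.37, 0 and 0, and Cd226, which competes with Tigit for ligands, was 63.89, 46.01 and 56.82 against 51.15, 33.77, 45.36 and 30.34. Of 9 genes of tissue residency 4 were higher at an unadjusted p under 0.05, with a median of -0.03. These were Itgae (CD103) at 6.79, 8.30 and 14.34 against 4.26, 2.31, 4.64 and 6.80, Cd69 at 146.57, 104.60 and 95.76 against 103.18, 93.68, 77.46 and 73.40, and Itgb7 and S1pr5, with log2 fold changes of 0.45 and 0.74. The other 5 were below 0, down to -0.43 for Ahr, so that the list had no common direction. The count of 4 higher was 2 without B10, without B7, without B8 and without B9, and without C1 it was 2 higher and 1 lower. Against all 16 wild-type libraries it was 0, with a median of 0.20. Bcl2l1, which encodes the survival protein Bcl-xL, was 30.34, 26.15 and 28.79 against 20.30, 17.91, 20.09 and 26.12, and the heat shock gene Hspa1b was 4.26, 2.07 and 1.85 against 4.73, 3.67, 8.27 and 7.55, where a near-identical copy makes the counting uncertain. The copy, Hspa1a, had a log2 fold change of -0.67, beside -0.92 for Hspa1b. Of 12 heat shock genes 3 were lower and 0 higher at an unadjusted p under 0.05, with a median of -0.05. The count of lower heat shock genes was 0 without C1, without B11 or without B8, and 0 against all 16 wild-type libraries. Cd163l1, a scavenger receptor of gamma delta T cells, was low and overlapped, at 0.47, 2.66 and 0.89 against 0.44, 2.06, 1.45 and 0.41. Of 19 effector and exhaustion transcription factors 1 was higher and 0 were lower (median -0.10), and the 16 glycolysis and 21 T cell receptor signalling genes held 0 in either direction.

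**Figure D3:**
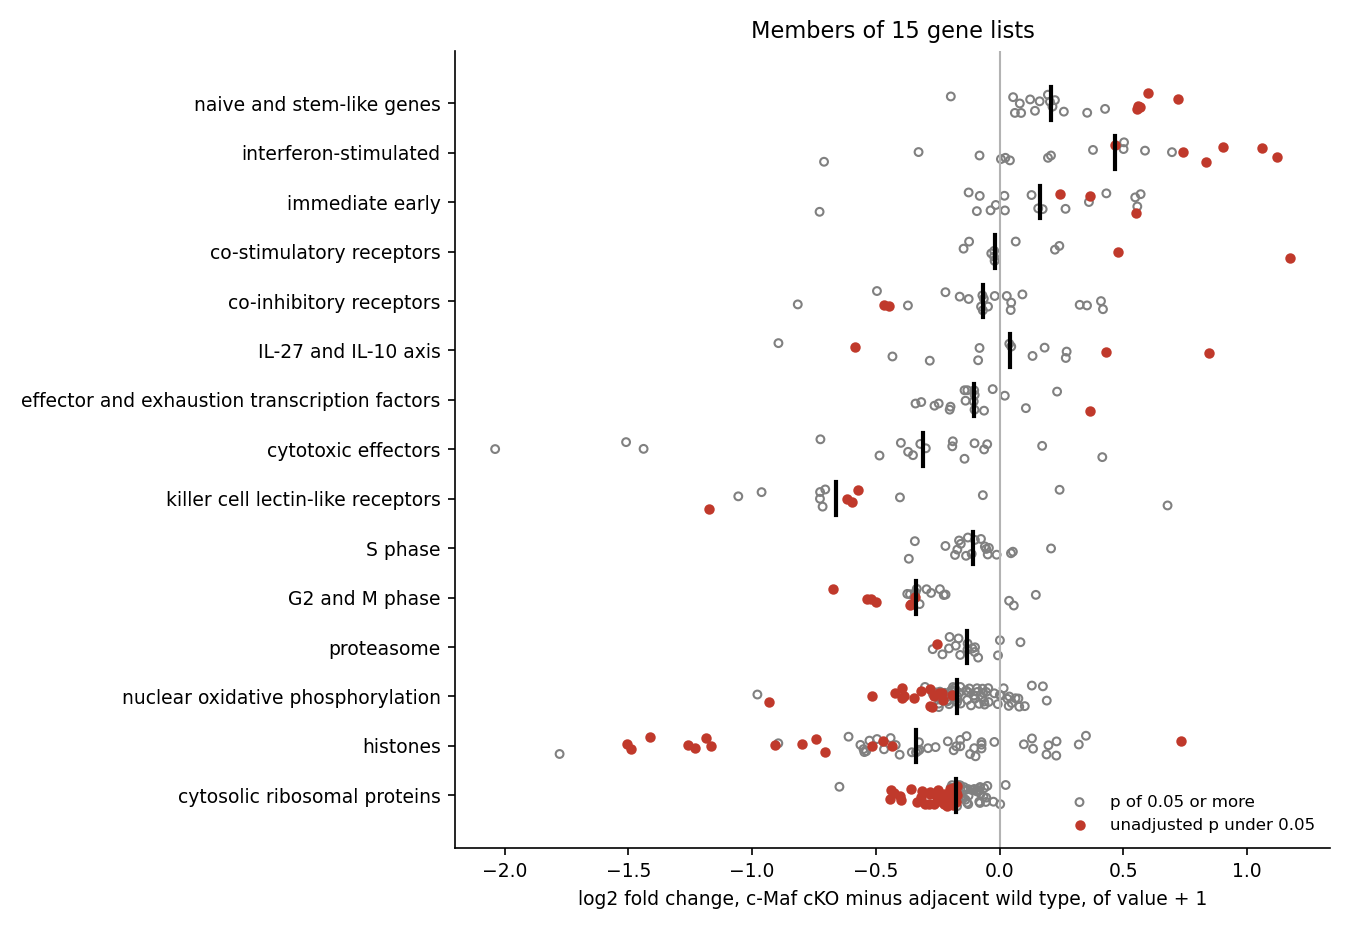
Log2 fold changes of value + 1 between c-Maf cKO and adjacent wild type for the members of 15 gene lists; each point is a gene, filled where the unadjusted p was under 0.05, and the bar is the median of the list. Interferon-stimulated genes have the highest median (0.47) and killer cell lectin-like receptors the lowest (-0.66). With a minimum value of 10 the interferon-stimulated median was 0.21, below that of naive and stem-like genes (0.43). With a pseudocount of 10 the lectin-like receptor median was -0.17, and that of cytotoxic effectors was lower (-0.24).

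Lower values were frequent among genes for ribosomal proteins, histones and the respiratory chain. These 3 lists, of cytosolic ribosomal proteins, histones and nuclear-encoded subunits of oxidative phosphorylation, were chosen after values had been seen. Of 78 ribosomal protein genes 76 had a log2 fold change below 0, 35 were lower and 0 higher at an unadjusted p under 0.05, 29 lay below wild type without overlap, and the median was -0.18. Rpl36 was 460.71, 404.18 and 411.19 against 543.71, 588.78, 539.91 and 641.97, and Rpl41 was 1866.78, 1632.34 and 1600.12 against 2172.25, 2366.21, 2109.16 and 2291.04, with B10 the c-Maf cKO library nearest to wild type in both. Of 57 histone genes 14 were lower and 1 higher (median -0.34), and of 78 oxidative phosphorylation genes 16 were lower and 0 higher (median -0.17). The ribosomal count was 16 without C1, 20 without B7, 18 without B9, and 6 with limma's trend and robust options off, and the median was -0.04 after quantile normalisation and -0.06 against all 16 wild-type libraries. The histone median was 0.13 against all 16. Of the oxidative phosphorylation genes, 8 were lower without B7, 5 without limma's trend and robust options, and 3 were higher and 3 lower against all 16.

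Transcript length moved with the difference between the genotypes. In the quartile of shortest transcripts (83 to 782 bases) genes had a median log2 fold change of -0.066, or -0.061 without ribosomal protein genes, and the quartile with the longest had 0.011. Of the shortest quartile 7.28% were lower at an unadjusted p under 0.05, against 1.87% of the longest. Over 10480 genes with a known length (99.28% of those tested), Spearman's rho between length and log2 fold change was 0.094 across genes, and that for GC content was -0.013; genes of the same libraries are not independent replicates. Ribosomal protein genes had a median length of 630 bases, against 1295 for all genes. With the trend over length removed from each library, the median of ribosomal protein genes was -0.11 with 13 lower, that of oxidative phosphorylation genes was -0.10 with 7 lower, and over all genes 339 were higher and 327 lower at an unadjusted p under 0.05, where the values as deposited gave 268 and 442.

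**Figure D4:**
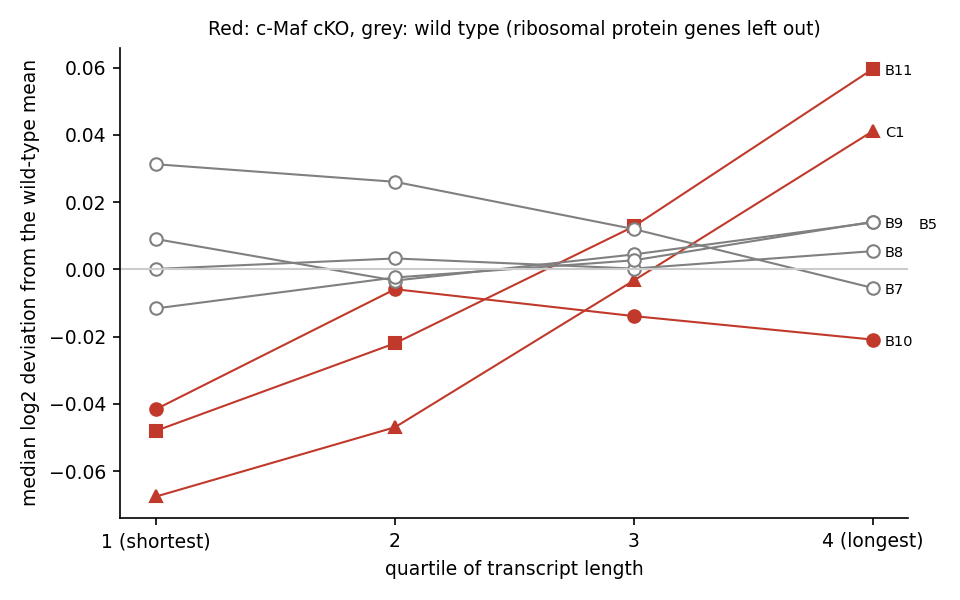
Median deviation of the log2 level from the wild-type mean, for each library, over 4 quartiles of transcript length with ribosomal protein genes left out; red lines are the 3 c-Maf cKO libraries and grey lines the 4 wild-type libraries. Wild-type lines lie near 0 partly because deviations are taken from the mean of those same 4 libraries. The c-Maf cKO libraries are the lowest 3 at the shortest quartile, from -0.068 to -0.042, and at the longest quartile B11 and C1 are above every wild-type library while B10 is below.

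The c-Maf cKO effect was then set against the effects of the other knockouts, each taken against its own adjacent wild-type libraries, so that no control was shared. Over 12251 genes, 0 (0%) differed between the c-Maf cKO and Prdm1 cKO effects at an adjusted p under 0.05 by limma, and 732 did at an unadjusted p under 0.05. This count does not show that the effects are alike, since the estimates of the difference were wide. For Gzmb the log2 fold change was -0.40 in c-Maf cKO and -4.84 in Prdm1 cKO, a difference of 4.44 with a 95% interval from 2.68 to 6.21 (adjusted p = 0.157), and for Gzma, which encodes granzyme A, the difference was 3.12 (interval 1.80 to 4.45, adjusted p = 0.214). For Prdm1 itself the difference was 1.70 (interval 0.63 to 2.78, adjusted p = 0.565), with log2 fold changes of -0.34 and -2.04. The median log2 fold change of the 20 naive and stem-like genes was 0.21 in c-Maf cKO and 0.94 in Prdm1 cKO. Markers of other cells also had different medians in c-Maf cKO and Prdm1 cKO, with 0.13 and 2.14 for the 14 macrophage and monocyte markers, -0.03 and 1.08 for 10 dendritic cell markers and -1.14 and 1.42 for 5 erythroid markers. None of these markers differed past the threshold, and their part in the comparison was not tested.

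The cDKO effect differed from the c-Maf cKO effect for 132 genes: 110 (0.898%) had a higher and 22 (0.18%) a lower log2 fold change in cDKO. The cDKO libraries were coded C2, A1 and A2, and their adjacent wild-type libraries B1, B2, B3, B4 and B6. No code letter was shared, so that genotype and code letter cannot be told apart in the cDKO effect. Of 18 cytotoxic effectors 2 passed, both lower in cDKO, and of 24 co-inhibitory receptors 2 passed, both lower. Gzmb had log2 fold changes of -4.19 in cDKO and -0.40 in c-Maf cKO (difference -3.80 ± 0.87, adjusted p = 0.0358), Havcr2 -3.29 and -0.47 (-2.82 ± 0.67, adjusted p = 0.036), and Gzma -2.55 and 0.41 (-2.96 ± 0.65, adjusted p = 0.0267). Entpd1, which encodes the ectonucleotidase CD39, had -3.07 and 0.09 (-3.16 ± 0.55, adjusted p = 0.00585), with c-Maf cKO values of 40.25, 40.46 and 67.02 beside 46.03, 51.79, 43.20 and 39.08 in wild type. Lad1 and Ccl1 lay on opposite sides of 0, at 1.05 and 1.35 in c-Maf cKO and -2.34 and -3.73 in cDKO (differences -3.39, adjusted p = 0.00585, and -5.08, adjusted p = 0.0301). Entpd1 and Gzma were named after their values were seen.

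Among genes with the higher log2 fold change in cDKO were ribosomal protein genes. Of the 78 measured, 55 differed, all with the higher value in cDKO, and the median log2 fold changes of the list were -0.18 in c-Maf cKO, 0.26 in Prdm1 cKO and 0.62 in cDKO. The 5 erythroid markers had medians in the same order, -1.14, 1.42 and 3.60, with 0 of them past the threshold for the difference, and their part in the result was not tested. Rplp1 had log2 fold changes of 1.11 in cDKO and -0.19 in c-Maf cKO (difference 1.30 ± 0.19, adjusted p = 0.00371) and Rpl12 had 1.01 and -0.18 (1.19 ± 0.18, adjusted p = 0.00405). The differences for Rplp2, Rps12, Rps19, Rps20 and Rpl36 were between 1.06 and 1.16. Outside this group, Il7r had 2.18 in cDKO and 0.20 in c-Maf cKO (difference 1.98 ± 0.49, adjusted p = 0.0476), Mafk had 1.17 and -0.25 (1.41 ± 0.30, adjusted p = 0.0172), Pim3, a survival kinase, had 1.14 and -0.23 (1.37 ± 0.24, adjusted p = 0.00585), and Trpc4ap had 1.95 and -0.35 (2.30 ± 0.37, adjusted p = 0.00443). With libraries rescaled to the CD3 genes the median difference of all genes moved from -0.01 to 0.30, and 0 genes had a higher and 3 a lower log2 fold change in cDKO past the threshold. With median-of-ratios rescaling, chosen after seeing the data, 112 were higher and 26 lower. Lad1 and Entpd1 passed under all 12 alternatives run, both rescalings included. With limma's trend and robust options off, 43 genes differed. Leaving out single libraries gave 74 to 102 genes (78 without B10, 79 without C1 and 74 without B9), and the calls of Havcr2, Gzmb, Gzma, Ccl1 and Il7r were lost when some of the 7 libraries were left out (Havcr2 with each of them).

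**Figure D5:**
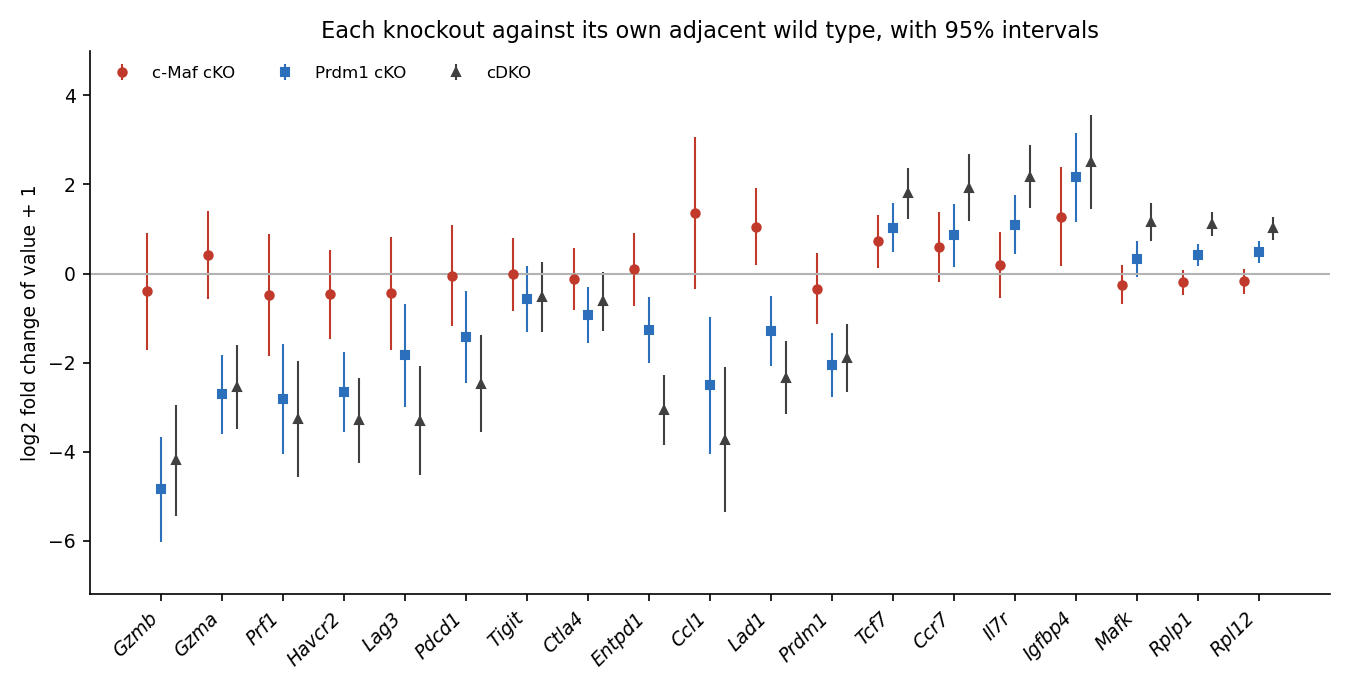
Log2 fold changes of value + 1 with 95% intervals for 19 genes in c-Maf cKO (circles), Prdm1 cKO (squares) and cDKO (triangles), each against its own adjacent wild-type libraries, from one fit of all 25 libraries. For Gzmb, Gzma, Havcr2 and Entpd1 the c-Maf cKO interval spans 0 while those of the other knockouts lie below it. For Havcr2 the c-Maf cKO interval from the fit of 7 libraries alone, given in the text, lay below 0.

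Signal of other cells varied between libraries of both genotypes. Of 11 marker scores, each the mean log2 level of a list, none passed an exact two-sided permutation test (the smallest p was 0.0571, for B cell markers, Benjamini-Hochberg adjusted 0.629). The smallest p possible with 35 splits was 0.0286, so a single score could not pass after adjustment over 11, whatever its values. The test therefore cannot show that the scores were alike. B cell scores did not overlap, at 0.238 to 0.376 in c-Maf cKO and 0.381 to 0.589 in wild type. The summed signal of 14 macrophage and monocyte markers was 798 to 2203 in c-Maf cKO and 705 to 1622 in wild type, and that of 11 melanoma markers was 17.7 to 678 and 118 to 430. Erythroid markers summed to 15.8 to 133 in c-Maf cKO and 66.2 to 393 in wild type (p = 0.114, exact permutation test). CD4 and regulatory T cell markers summed to 13.9 to 18.96 and 10.1 to 21.3, and those of B cells to 1.06 to 2.10 and 2.27 to 4.80, low beside 2303 to 2589 for the 7 CD8 T cell markers over all 7 libraries. Pax5, Hba-a2 and Col1a2 were listed at 0 in all 7 libraries, and 1 gamma delta T cell marker was in the table, at no more than 0.05.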

How the data were processed

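RNA of bulk CD8+ T cells was sequenced by an adapted SMART-Seq 2 protocol, per the labels. The authors deposited 1 table of 23366 gene symbols by 25 libraries, whose values are a normalised signal with 2 decimals and not counts. TopHat, RSEM, DESeq and the mouse build mm9 are named in the submitters' processing notes. The sources used here do not give their versions, order or settings, and depth in reads is unknown. Column names gave the group of each library and no replicate number. No 2 columns were identical.

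Genes with a value of at least 1 in at least 3 of the 7 libraries were tested on log2(deposited value + 1), a log2 scale that understates changes of low genes, with limma 3.58.1 (R 4.3.3; trend and robust options) and Benjamini-Hochberg adjustment over all genes tested, at 0.05. The steps were tested on simulated data. Single values and marker scores had exact two-sided permutation tests over 35 splits. Differences between knockout effects came from a fit of all 25 libraries in 6 groups. Named genes were up to 15 a direction, called ones first and then those with the smallest unadjusted p without overlap (predicted, clone-named and receptor segment symbols left out), the Maf family, members of each list by smallest p or by name, and the genes with the smallest p for a difference between effects; a few that the rule takes are not reported here. Members and lists were chosen with earlier results of these data known. Transcript lengths are from GENCODE vM21 and promoter sequences from RefSeq (GRCm38.p6), matched by symbol. Alternatives covered pseudocount, filter, scaling, limma's options, marker covariates, the wild-type libraries used and each library left out. Summing gene copies and removing the trend over transcript length were chosen after seeing the data.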

Additional observations from a re-analysis of the deposited data

Results flagged for a closer look

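In 92 groups of 4 adjacent wild-type values looked at, 7 had a library far from the other 3, and chance flags about 1 in 20 such groups. These were the highest value of Prss2 (0.11) and the lowest of Lad1 (10.65), Hist1h2bk (7.48) and Ccl1 (11.03), the highest neutrophil marker score (1.32, in B7), the lowest melanoma marker score (2.72, in B5) and the highest gamma delta T cell marker score (0.0704).

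The cDKO and c-Maf cKO effects differed by limma's test of the difference for 132 genes. No cDKO library shared a code letter with its adjacent wild-type libraries. Of those named, the log2 fold change was lower in cDKO for Lad1 (difference -3.39), Havcr2 (-2.82), Gzmb (-3.80), Ccl1 (-5.08), Entpd1 (-3.16) and Gzma (-2.96). It was higher in cDKO for Mafk (1.41), Il7r (1.98), Pim3 (1.37), Trpc4ap (2.30), Rpl36 (1.08), Rpl12 (1.19), Rplp1 (1.30), Rplp2 (1.08), Rps12 (1.11), Rps19 (1.06) and Rps20 (1.16).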

How the results depend on the processing

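No paired analysis was possible because the columns carry no replicate numbers. The count of genes between c-Maf cKO and adjacent wild type, 1 as reported, was 0 with a minimum value of 10, 0 in the fit of all 25 libraries, 0 with the Tmem254 copies summed, 3 with the macrophage and 3 with the melanoma marker score as a covariate, and 1 to 4 with single libraries left out (4 without C1). The count for c-Maf cKO against Prdm1 cKO, 0 as reported, was 2 with a pseudocount of 10, 1 with CD3 rescaling and 0 to 1 with single libraries left out (1 without C1). That for cDKO against c-Maf cKO, 132 as reported, was 43 without limma's trend and robust options, 3 with CD3 rescaling and 74 to 102 with single libraries left out.

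Of 1662 alternative values for 80 genes, 1605 kept their direction and side of the threshold, 47 changed direction, 7 came past the threshold and 3 were lost. As 1 gene passed in the comparison as reported, the side of the threshold was kept mostly by genes that began below it. Of 204 alternative values for 17 differences from cDKO, 159 kept both and 45 were lost. Against all 16 wild-type libraries the difference was -0.152 for the Maf signal, 1.5 for the Prdm1 signal, 0.186 for the CD8 T cell, -0.238 for the dendritic and -0.166 for the fibroblast marker score (the last now under 0.05). Log2 fold changes there were in the other direction for Cd81 (-0.31), Hist1h2ao (0.24), Tmsb4x (0.019), Hist1h2bk (0.52), Prdm1 (0.19), S1pr1 (-0.12), Il7r (-0.38), Havcr2 (0.24), Lag3 (0.22), Tigit (0.26), Pdcd1 (0.71), Ctla4 (0.29), Gzmb (0.43), Prf1 (0.54), Nkg7 (0.24), S1pr5 (-0.10), Birc5 (0.019), Ccnb2 (0.18), Pim3 (0.20), Trpc4ap (0.27), Gzma (-0.025), Ldhb (-0.35), Bag1 (0.36) and Cd8a (0.27); the cause was not tested. Direction also changed for Tmem254c with copies summed (-0.061), Tigit with median-of-ratios rescaling (0.0063), quantile normalisation (0.069) and the length trend removed (0.013), Pdcd1 with quantile normalisation (0.039), and Il10 with a pseudocount of 0.1 (-0.019). With single libraries left out, values spanned 0 for Maff (-0.044 to 0.22), Mafg (-0.012 to 0.27), Il7r (-0.022 to 0.54), Tigit (-0.12 to 0.052), Pdcd1 (-0.17 to 0.066), Ctla4 (-0.30 to 0.033), Il10 (-0.42 to 1.05), Cd163l1 (-0.24 to 0.41), Entpd1 (-0.15 to 0.21), the Maf signal (-0.247 to 0.217) and the macrophage (-0.668 to 0.632), dendritic (-0.675 to 0.483), NK (-0.0969 to 0.279), melanoma (-0.981 to 0.899) and fibroblast (-0.11 to 0.0133) scores, and reached 0 for gamma delta T cells (-0.0235 to 0). Precision is limited by 3 and 4 libraries, and depth is unknown.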
